A study of Mus musculus with 8 samples.

Results

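Chil3, Retnla and Retnlg encode secreted proteins of macrophages and granulocytes, and were examined as every probe of the deposited value table whose gene symbol in the platform annotation is 1 of the 3. That rule found 3 of 16593 genes and 5 of 25697 probes, namely 3 for Chil3, 1 for Retnla and 1 for Retnlg. Chil3, also called Ym1, is a chitinase-like lectin that binds sugars but does not cut chitin, and it accumulates outside the cell in type 2 inflammation. Retnla, also called RELM alpha or FIZZ1, and Retnlg, called RELM gamma, are small cysteine-rich proteins of the resistin family. In mouse macrophages, interleukin-4 (IL-4) binds its receptor and activates the transcription factor STAT6, and Chil3 and Retnla are the classic secreted products by which this alternative activation is recognised. Retnlg is known in the mouse chiefly from bone marrow and neutrophils.

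The samples were peritoneal macrophages of C57BL/6 mice, either wild type (WT) or from a line labelled as a knockout of the Fcg chain (KO), the signalling subunit of activating Fc receptors. All cells, controls included, were plated overnight in RPMI with serum and L929 cell supernatant as a source of the growth factor MCSF, floating cells were removed, and each genotype was then left unstimulated or given IL-4 at 10 ng/ml for 6 h. Each of the 4 groups had 2 bead arrays, 8 in all. The titles number the duplicates without tying them to animals, so p-values measure only the spread between these samples, which may be technical, and with so few arrays their number limits the precision. In such bulk RNA, fewer cells of a type and less RNA per cell cannot be told apart.

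All arrays shared nearly the same distribution of values, and duplicates correlated at r = 0.994 across the tested probes. Fcer1g, the gene of the gamma chain, had an intensity of 12988 on both unstimulated WT arrays and of 9915 and 10170.2 on the WT arrays with IL-4, against 85.7 to 91.8 on the KO arrays, where it was not above background. All 6 macrophage markers with a probe, of 8 listed, were above background in every group, with a summed intensity of 34083 to 37498. The largest part of that sum was 1 Lyz2 probe at 16825 to 18303, the latter being the highest reading in the table. At an adjusted p under 0.05 in limma, Adgre1 was higher in KO (log2 0.60 unstimulated and 0.59 with IL-4) and Cd14 lower (-0.64 and -0.55). Fcgr1 was higher in KO with IL-4 (0.64). Markers of large peritoneal macrophages summed to 5289 to 5413 on the WT arrays and to 8852 to 11054 on the KO arrays, with 7 of 8 measured genes above background in each group. Most of that difference came from Vsig4, a complement receptor, at 2366 to 2807 in WT and 5348 to 8006 in KO: without it the sums were 2571 to 3002 in WT and 3047 to 3823 in KO. Of the eosinophil markers, at most 1 of 5 was above background on both arrays of a group, and Epx and Siglecf, which define that cell, were not. Of the mast cell markers 5 of 6, and of the B cell markers 4 of 5, were above background in every group, and the sums of each list overlapped between the groups. None of 5 tested mast cell markers passed between the genotypes in limma. At an unadjusted p under 0.05, 3 were lower in unstimulated KO and 2 in KO with IL-4. Small peritoneal macrophage and dendritic cell markers summed to 10116 to 11416 in unstimulated cells and 12019 to 16878 with IL-4. Most of these sums was the signal of 1 gene, H2-Ab1, while Ccr2, Flt3 and Cd209a were not above background on both arrays of any group. None of 4 tested passed in either response in limma (2 higher in WT and 1 in KO at an unadjusted p under 0.05).

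The promoters are shown because STAT6 acts on these genes through DNA and because each induced gene has a close relative next to it. The probe of Chil4, beside Chil3, stayed below background with and without IL-4, so a change was not measured. That of Retnlg, beside Retnla, was lower with IL-4 in WT and below background in KO. Each run is the 250 bases before the transcription start, 5′ to 3′ on the gene's strand, from RefSeq on GRCm38.p6. Capitals mark a STAT-type palindrome, that is TTC and GAA with 3 bases between them (TTCNNNGAA) or with 4, the latter being the spacing that STAT6 is known to prefer. The Chil3 window is chr3:106167565-106167814 on the minus strand and that of Chil4, the Ym2 gene beside it, is chr3:106219480-106219729 on the minus strand. The Retnla window is chr16:48842359-48842608 and that of Retnlg, the next gene, is chr16:48872358-48872607, both on the plus strand.
Chil3: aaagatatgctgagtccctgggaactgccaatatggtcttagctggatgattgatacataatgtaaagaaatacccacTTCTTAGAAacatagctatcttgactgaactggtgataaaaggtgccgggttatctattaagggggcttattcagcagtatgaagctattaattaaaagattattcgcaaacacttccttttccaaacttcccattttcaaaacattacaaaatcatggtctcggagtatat
Chil4: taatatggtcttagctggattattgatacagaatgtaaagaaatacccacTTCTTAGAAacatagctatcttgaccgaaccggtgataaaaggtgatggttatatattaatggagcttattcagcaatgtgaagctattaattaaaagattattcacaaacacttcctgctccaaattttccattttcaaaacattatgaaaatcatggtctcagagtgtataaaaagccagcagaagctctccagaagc
Retnla: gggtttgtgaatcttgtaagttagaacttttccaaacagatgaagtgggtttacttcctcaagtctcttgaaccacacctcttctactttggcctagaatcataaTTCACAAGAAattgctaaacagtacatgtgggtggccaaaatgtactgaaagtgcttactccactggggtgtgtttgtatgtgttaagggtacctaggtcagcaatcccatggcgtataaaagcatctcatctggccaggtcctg
Retnlg: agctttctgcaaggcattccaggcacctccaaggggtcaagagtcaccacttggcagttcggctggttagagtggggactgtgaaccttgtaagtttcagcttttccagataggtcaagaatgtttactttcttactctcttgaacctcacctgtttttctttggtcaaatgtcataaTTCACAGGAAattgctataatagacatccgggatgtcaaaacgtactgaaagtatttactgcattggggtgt

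Chil3 and Chil4 carried the same palindrome, TTCTTAGAA, at -172 to -164 and at -200 to -192 from the start, and the copies lay opposite each other in the alignment of the windows. These promoters were identical at 201 of 222 aligned bases (90.5%). Retnla held TTCACAAGAA at -145 to -136 from the start, and Retnlg held TTCACAGGAA at -72 to -63. Those copies also lay opposite each other and differed by A7G, counted from 1 at the 5′ end of the Retnla copy. Retnla and Retnlg were identical at 135 of 173 aligned bases (78.0%). A C/EBP-type palindrome, TTGNNCAA, occurred in Retnlg alone among these 4 windows, as TTGGTCAA at -89 to -82. All 3 motifs read the same on both strands, and none overlapped another here. Over 32536 promoter windows of this length, 7.04% held TTCNNNGAA, 5.89% held the form with 4 bases between the arms, 12.5% held either of them and 5.61% held TTGNNCAA. A match describes letters and is not evidence of binding.

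Values are given first as deposited, in intensity units on a linear scale in which the lowest reading was 78.4 rather than 0, and then as differences after background correction on the log2 scale. The background threshold, set from the low values of each array, was 93.2 to 93.4. All 5 probes were above that threshold on both arrays of at least 1 group and entered the test. A difference passed at an adjusted p under 0.05 (limma with Benjamini-Hochberg adjustment over all 14327 probes). Intervals are 95%. Absence of overlap between 2 groups of 2 arrays is common here and says little by itself: it held for 54.5% of all tested probes in the WT response to IL-4, 57.3% in the KO response, 44.3% between the unstimulated genotypes and 46.9% between the genotypes with IL-4.

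Chil3 was close to background in unstimulated cells and rose with IL-4 in both genotypes to among the brightest signals on the array. Its brightest probe, ILMN_2712986, read 122 and 128 in unstimulated WT cells and 107 and 103 in unstimulated KO cells. With IL-4 it read 4755 and 5856 in WT and 4494 and 4674 in KO. All 4 arrays with IL-4 were thus far above all 4 without it, at the 99.3rd to 99.6th percentile of their array against the 61.1st to 70.4th. The increase was 6.46 ± 0.12 (log2, SE) in WT, 87.8-fold (adjusted p = 6.3e-13 in limma), and 6.85 ± 0.12 in KO, 115-fold (adjusted p = 2.9e-13 in limma).

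The other Chil3 probes gave the same picture. Probe ILMN_3117876 read 101 and 110.3 in unstimulated WT cells, 91.8 and 101 in unstimulated KO cells, 2576 and 2646 in WT with IL-4, and 2408 and 1776 in KO with IL-4. Probe ILMN_3043036 read 97.5 and 102 in unstimulated WT, 93.5 and 93.9 in unstimulated KO, 1923 and 2864 in WT with IL-4, and 1799.9 and 1873 in KO with IL-4. Neither showed overlap between stimulated and unstimulated arrays. Their increases were 5.99 ± 0.17 and 6.06 ± 0.16 (log2, SE) in WT and 6.03 ± 0.17 and 5.97 ± 0.16 in KO, with adjusted p in limma from 2.7e-11 to 4.9e-11. In KO the baseline was at the edge of the background, ILMN_3117876 being above it on 1 of 2 arrays and ILMN_3043036 by less than 1 unit, so the size of these increases is uncertain. On the deposited readings the KO increase was at least 21.3-fold and 19.6-fold, with the baseline taken as no lower than the background threshold.

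The 3 Chil3 probes held ranks 1 to 3 of 14327 for the increase with IL-4, in WT and again in KO, both responses having their own controls, and held ranks 1 to 3 in each also with no background correction. The size of these folds depends on the background: because the unstimulated reading was almost all background, the corrected change exceeds the ratio of readings. As plain ratios to the unstimulated WT mean, the brightest probe stood at 38.1 and 46.9 in WT with IL-4 and at 36.0 and 37.4 in KO with IL-4. For ILMN_3117876 the same ratios were 24.3 and 25.0 in WT and 22.8 and 16.8 in KO.

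**Figure D1:**
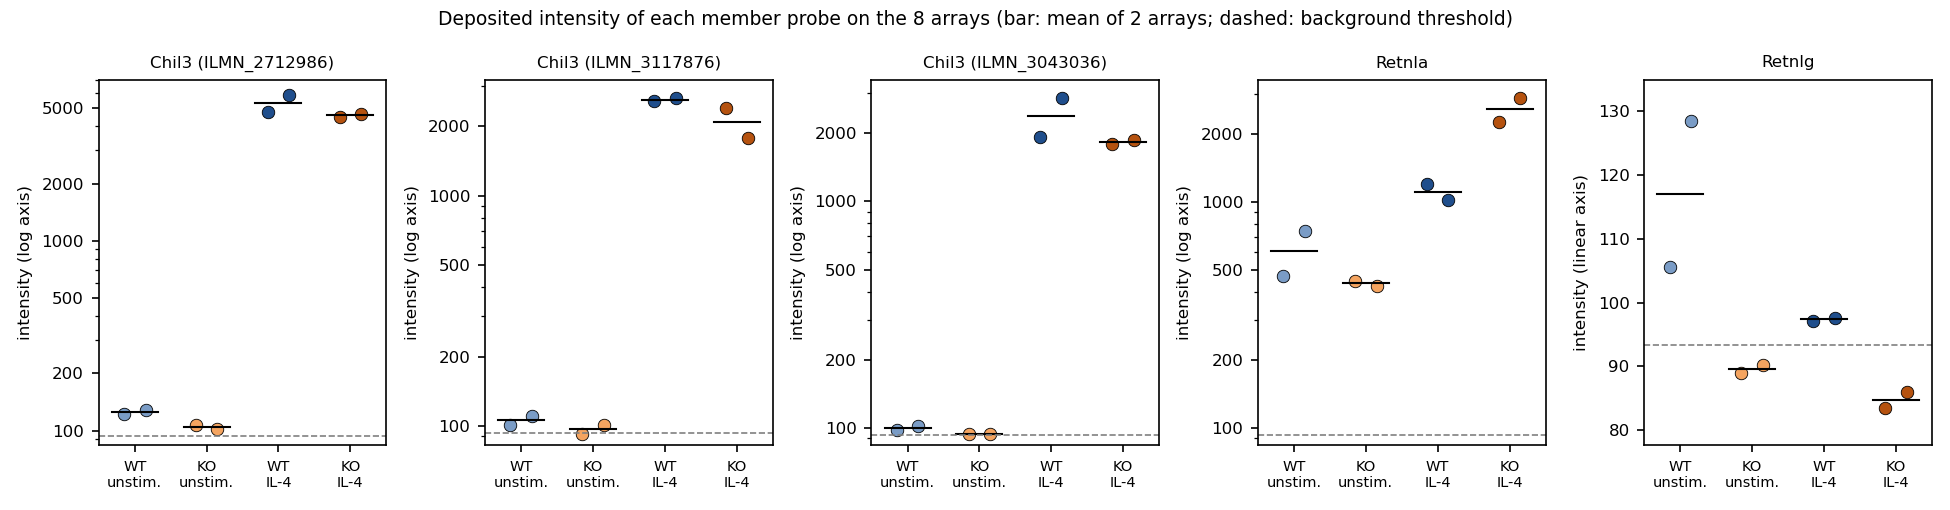
Deposited intensity of the 5 probes on each of the 8 arrays, in intensity units on a log axis for Chil3 and Retnla and a linear axis for Retnlg. Points are arrays, bars the mean of 2 arrays and the dashed line the background threshold. Chil3 leaves the background in both genotypes with IL-4, Retnla is highest in KO with IL-4 at 2255 and 2887, and Retnlg is above the threshold only in WT.

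How far unstimulated Chil3 stood above background differed by probe and by genotype. Over the threshold, ILMN_2712986 had an excess of 28.5 to 34.6 intensity units in WT and of 9.33 to 13.5 in KO. The excess of ILMN_3117876 was 7.91 to 17.0 in WT, and in KO 1 of 2 arrays lay below the threshold. For ILMN_3043036 it was 4.09 to 8.76 in WT and 0.158 to 0.651 in KO. Each probe was thus lower in unstimulated KO than WT cells, with no overlap for ILMN_2712986 and ILMN_3043036, and WT arrays at 101.32 and 110.3 against 91.8 and 101.31 for ILMN_3117876. Absence of overlap, in either direction, held for 44.3% of all tested probes in this comparison.

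The brightest Chil3 probe passed the test of that genotype difference and the other 2 did not. It was lower in KO by -0.60 ± 0.12 (log2, SE, interval -0.86 to -0.34), 1.51-fold (adjusted p = 0.009 in limma). ILMN_3117876 differed by -0.38 ± 0.17 and ILMN_3043036 by -0.28 ± 0.16, with adjusted p of 0.295 and 0.453 in limma. The call of the brightest probe was lost without the second WT array (-0.52, adjusted p = 0.0932 in limma) and without the second KO array (-0.52, adjusted p = 0.0947), and it was also lost with no background correction (-0.25, adjusted p = 0.248).

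With IL-4, the Chil3 levels of the genotypes were not separated by the test. KO minus WT was -0.21 ± 0.12 for ILMN_2712986 (log2, SE, interval -0.46 to 0.05, adjusted p = 0.438 in limma). It was -0.35 ± 0.17 for ILMN_3117876 (interval -0.71 to 0.02) and -0.36 ± 0.16 for ILMN_3043036 (interval -0.71 to -0.02), with adjusted p of 0.344 and 0.268 in limma. The KO arrays were the lower ones for all 3 probes, without overlap. Absence of overlap, in either direction, held for 46.9% of all tested probes in this comparison. For ILMN_3043036 the difference depended on single WT arrays, being -0.66 (adjusted p = 0.0255 in limma) without the first and -0.070 without the second.

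The Chil3 responses of the 2 genotypes were not separated by the test either. KO minus WT responses differed by 0.39 ± 0.17 (log2, SE, interval 0.03 to 0.76, adjusted p = 0.741 in limma) for the brightest probe. ILMN_3117876 gave 0.04 ± 0.24 (interval -0.48 to 0.56) and ILMN_3043036 gave -0.09 ± 0.22 (interval -0.57 to 0.39). The order of the Chil3 levels was therefore unstimulated KO, unstimulated WT, KO with IL-4 and WT with IL-4 at every probe, and the last 2 were not separated by the adjusted test, though the interval of ILMN_3043036 lay below 0. The first 2 were separated by the test for ILMN_2712986 only, and unstimulated WT was not contrasted with KO given IL-4.

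Retnla was already well above background before stimulation and responded more in KO cells. In unstimulated cells it read 468 and 744 in WT and 449 and 425 in KO, between the 89.7th and the 94.0th percentile of the array. With IL-4 it read 1206 and 1017 in WT and 2255 and 2887 in KO. The 4 groups did not overlap, which for 2 groups at a time held for 44.3% to 57.3% of all tested probes. Their order was unstimulated KO, unstimulated WT, WT with IL-4 and KO with IL-4. Of the neighbours in this order, the unstimulated groups were not separated by the test, at -0.49 ± 0.19 (log2, SE, interval -0.91 to -0.08, adjusted p = 0.216 in limma). The unstimulated WT duplicates lay furthest apart in ratio: without the first the genotype difference was -0.87 (adjusted p = 0.0151 in limma) and without the second it was -0.12.

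IL-4 raised Retnla in both genotypes. The increase was 1.00 ± 0.19 (log2, SE, interval 0.58 to 1.41) in WT, 1.99-fold (adjusted p = 0.00298 in limma), and 2.74 ± 0.19 in KO, 6.70-fold (adjusted p = 5.1e-07 in limma). The WT value was 0.62 without the first unstimulated WT array and 1.37 without the second, past the threshold in both cases. Among the 14327 probes Retnla ranked 179th for the increase in WT and 21st in KO. Its plain ratios to the unstimulated WT mean were 1.99 and 1.68 in WT with IL-4 and 3.72 and 4.76 in KO with IL-4.

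Under IL-4 Retnla was 2.39-fold higher in KO than in WT, by 1.25 ± 0.19 (log2, SE, interval 0.84 to 1.67, adjusted p = 0.00139 in limma). This was the 14th largest increase of KO over WT among the probes tested. It passed in every alternative run, including the removal of any 1 array, with values of 1.07 to 1.44 and adjusted p of 0.000107 to 0.0398 in limma.

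The difference between the Retnla responses, tested directly, was 1.75 ± 0.27 (log2, SE, interval 1.16 to 2.33, adjusted p = 0.0306 in limma), the second largest in its direction. The call was lost on removing either unstimulated KO array (adjusted p = 0.111 and 0.189 in limma), or the second array of unstimulated WT (1.37, 0.0694), of WT with IL-4 (0.14) or of KO with IL-4 (0.109). The sign stayed positive throughout, between 1.37 and 2.12. The summed large peritoneal macrophage markers were also higher in KO with IL-4, at 8852 to 9646 against 5368 to 5413 in WT. Of 7 tested genes 5 were higher, against 1.97% of all tested probes. Vsig4 was 1 of them, at 1.19 (adjusted p = 6.9e-06 in limma). Without Vsig4 the sums were 3504 to 3823 against 2795 to 3002. In unstimulated cells the sums with Vsig4 were 10408 to 11054 in KO against 5289 to 5377 in WT. There 3 of 7 genes were higher in KO, against 2.19% of all tested probes. Timd4, a receptor for dying cells, read 133 and 143 in unstimulated KO against 181 and 158 in unstimulated WT. The T and NK cell markers, 5 of 6 above background in every group, summed to 647 to 725 in WT and 834 to 950.0 in KO with IL-4. Of 5 tested, 3 were higher in KO with IL-4, against 1.97% of all tested probes. In unstimulated cells they summed to 678 to 778 in WT and 793 to 924 in KO. None of the 5 passed there in limma (4 higher at an unadjusted p under 0.05). The part of either list in the Retnla result was not tested.

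**Figure D2:**
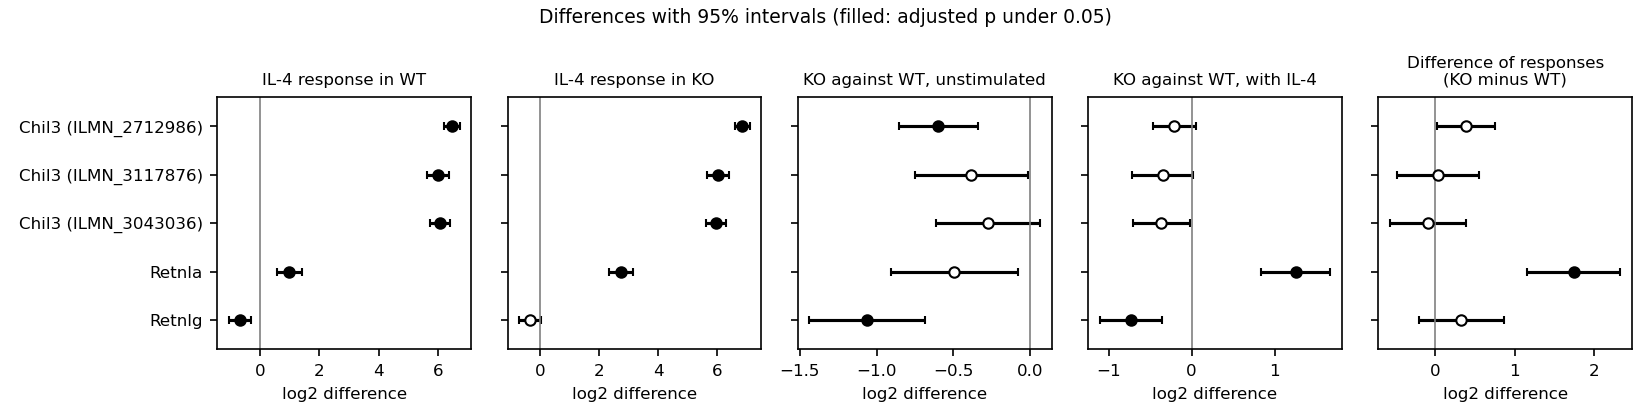
Log2 differences of the 5 probes in the 5 comparisons, with 95% intervals as bars and filled points for an adjusted p under 0.05 (limma, 2 arrays per group). The Chil3 responses lie near 6 to 7 in both genotypes, while for Retnla the response is 1.00 in WT and 2.74 in KO and the difference of responses, 1.75, lies apart from 0. Retnlg points that involve KO rest on readings below background.

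Retnlg was the dim member and moved the other way. It read 106 and 129 in unstimulated WT cells and 97.1 and 97.6 in WT with IL-4. In KO it read 89.0 and 90.2 unstimulated and 83.5 and 85.9 with IL-4, not above background on any of the 4 arrays. The groups did not overlap, which for 2 groups at a time held for 44.3% to 57.3% of all tested probes. Their order was KO with IL-4, unstimulated KO, WT with IL-4 and unstimulated WT. KO with IL-4 and unstimulated KO, neighbours in this order, were both below background, so their order carries no measured difference. Unstimulated KO and WT with IL-4 were not contrasted.

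In WT the Retnlg signal was 1.58-fold lower with IL-4, by -0.66 ± 0.17 (log2, SE, adjusted p = 0.0206 in limma). That call was lost without the second unstimulated WT array (-0.33, adjusted p = 0.191 in limma) and without either WT array with IL-4 (0.0869 and 0.0813). Since the KO level is only bounded by the background, the genotype differences are given as bounds, whose size depends on the scale. In unstimulated cells Retnlg was at least 1.25-fold lower in KO than in WT on the deposited readings, and at least 1.81-fold lower after background correction. With IL-4 it was at least 1.04-fold lower on the deposited readings and 1.14-fold after correction. The bounds themselves were not tested. The test was of the unbounded differences, which use KO readings below background. These were -1.06 unstimulated (log2, adjusted p = 0.00232 in limma) and -0.73 with IL-4 (adjusted p = 0.0279 in limma). The call with IL-4 was lost on removing any 1 of the 4 arrays compared. With both KO groups below background, the KO response of Retnlg and its difference from the WT response were not measured.

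Neutrophil markers were examined beside Retnlg because that cell is its known source. Their summed intensity over 13 measured genes was 3897 to 4250.4 in unstimulated WT, 3384 to 3422 in unstimulated KO, 3161 to 3275 in WT with IL-4 and 2838 to 3159.5 in KO with IL-4. Of the 13 genes, 6, 4, 2 and 3 were above background on both arrays of those groups in turn. S100a8, a calcium-binding alarmin of neutrophils and monocytes, read 2181 and 1901 in unstimulated WT, 1436 and 1305 in unstimulated KO, 925 and 1080.2 in WT with IL-4, and 830.3 and 1059 in KO with IL-4. The lower sums of the other groups relative to unstimulated WT came mostly from this 1 gene, so they do not describe the list as a whole. Of the 6 tested genes of this list, 3 fell with IL-4 in WT (S100a8, Camp and Prtn3), against 7.72% of all tested probes. Camp entered the test through unstimulated WT alone, so its fall is partly set by that filter. In WT with IL-4, Camp read 91.5 and 92.1 and Prtn3 read 97.2 and 87.9, below or near the background threshold. In the same response 1 rose, against 7.57%: Csf3r, the G-CSF receptor, by 0.88 (log2, adjusted p = 0.000402 in limma). In KO 2 fell (S100a8 and Prtn3), against 9.04% of all tested probes. Lower in KO than in WT were S100a8 in unstimulated cells (-0.60, adjusted p = 0.0169 in limma) and Csf3r with IL-4 (-0.57, adjusted p = 0.0211 in limma). Over all tested probes, 2.5% and 2.6% were lower in KO in these comparisons. The granule genes Ngp, Ltf, Lcn2, Mpo and Mmp8, and also S100a9 and Cxcr2, were not above background on both arrays of any group. The part of neutrophils in the Retnlg values was not tested.

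The members can be read against the array as a whole. In WT, 4 of the 5 probes rose and 1 fell with IL-4, where 7.57% of all tested probes were called higher and 7.72% lower (15.3% in either direction). In KO, 4 of 5 rose and none fell, against 8.7% and 9.04% of all probes (17.7% in either direction). In unstimulated cells 2 of 5 were lower in KO and none higher, against 2.5% and 2.19% of all probes (4.69% in either direction). With IL-4 1 of 5 was higher and 1 lower in KO, against 1.97% and 2.6% (4.57% in either direction). Retnlg was among the lower probes in both comparisons. It entered the test through the WT groups alone, so its lower calls in KO are partly set by that filter. The other probe lower in unstimulated KO was ILMN_2712986, 1 of 3 for Chil3. For the difference between responses 1 of 5 was called higher, against 0.0349% of all probes higher and 0.0698% lower (0.105% in either direction). The 3 Chil3 probes share a transcript and are not independent.

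**Figure D3:**
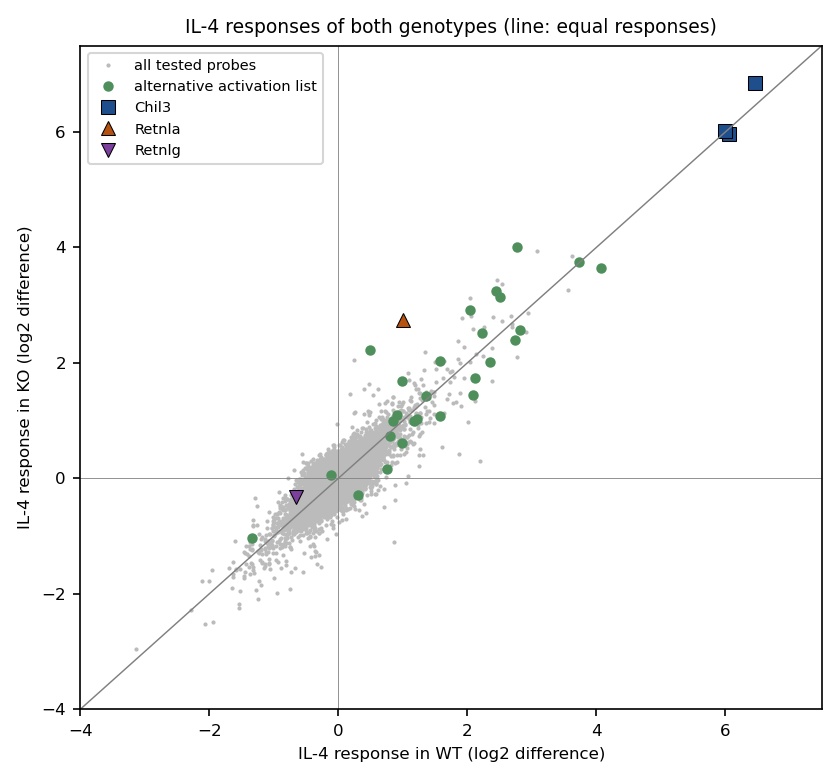
IL-4 response in KO (y axis) against that in WT (x axis), as log2 differences of all 14327 tested probes (grey), the alternative activation list (green) and the 3 genes, with a line of equal responses. Chil3 lies at the far end near the line, Retnla lies above it at 1.00 and 2.74, and Retnlg lies below 0 in both, at -0.66 in WT, its KO value being set between readings below background.

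The close relatives of these genes that had a probe gave almost no signal. Chil5 and Chid1, of the chitinase family, had 0 probes and were not measured. Among chitinase-family genes, Chil1, Chil4, Chil6, Chit1 and Ctbs were above background on 0 of 8 arrays, and Chia1 and Ovgp1, with 2 probes each, on at most 2. Chil4, whose promoter was 90.5% identical to that of Chil3 over the aligned bases, read 85.4 to 90.3 over all arrays with and without IL-4. The promoters of the other chitinase-family genes were not aligned. The probe sequences were not used here, so whether the Chil3 probes also bind Chil4 transcripts was not tested. In the resistin family, Retn read 83.5 to 91.1 and Retnlb 84.8 to 95.6, above background on 0 and 1 of 8 arrays. None of these relatives entered the test.

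On chromosome 3, Chil3 is flanked by Chia1 and Chil4, both at or near background on all arrays. Farther out among the 6 genes on either side, Dram2, a lysosomal membrane protein, was lower with IL-4 by -0.43 in WT and -0.41 in KO (log2, adjusted p = 0.0248 and 0.0293 in limma). Wdr77, a subunit of the methylosome, was higher by 0.43 and 0.58 (adjusted p = 0.0341 and 0.00595). On chromosome 16, Retnla lies between Retnlb and Retnlg, and none of its other tested neighbours, Trat1, Dzip3, Cip2a and Ift57, passed in either response. No neighbour rose by an amount near that of Chil3 or of Retnla in KO.

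**Figure D4:**
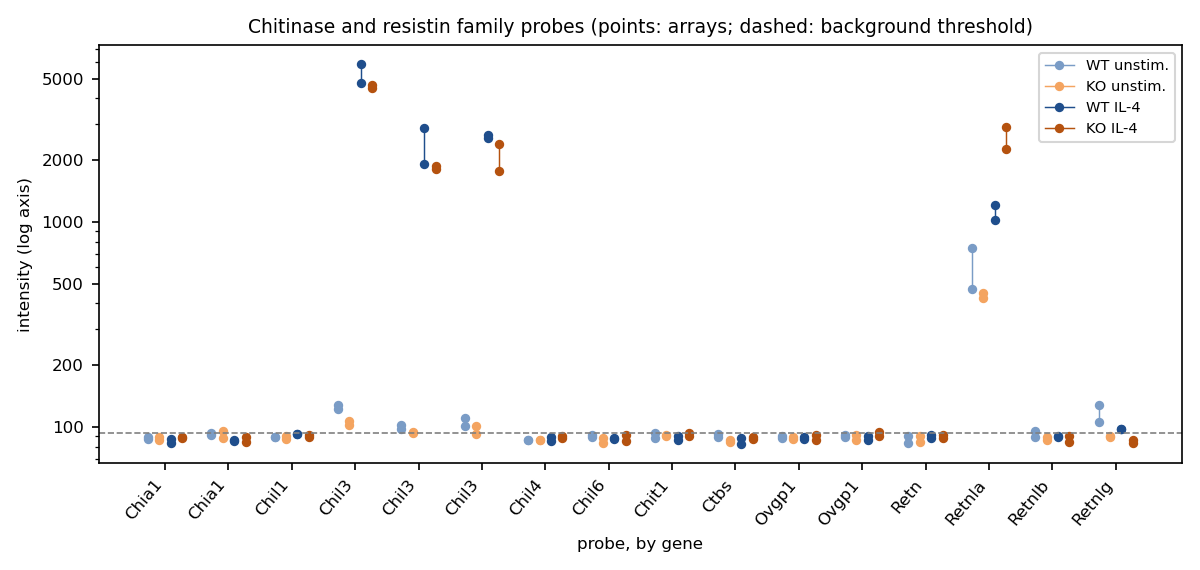
Deposited intensity, on a log axis, of every probe of the chitinase and resistin families in the 4 groups. Points are arrays, joined within a group, and the dashed line is the background threshold. Chil3 with IL-4 and Retnla in all groups stand clear of it, whereas Chil4 at 85.4 to 90.3 and the other relatives stay at the background.

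Other genes of the programme moved with Chil3 and Retnla in most cases. Of 31 further genes of IL-4-driven alternative activation, 27 were tested, 3 had no probe and 1 was below background. The list was chosen with earlier results of these data known, so its counts are a description and not an independent check. In WT 23 rose and 1 fell with IL-4 (median log2 1.57, against -0.01 over all probes, of which 7.57% rose and 7.72% fell). In KO 23 rose and 1 fell (median 1.69, against -0.01 over all probes, of which 8.7% rose and 9.04% fell). In WT the largest changes were of Cish, a feedback inhibitor of cytokine signalling (4.08), Mrc1, the mannose receptor (3.73), Cdh1, E-cadherin (2.82), and Slc7a2, a transporter of arginine (2.78). In KO they were of Slc7a2 (4.01), Mrc1 (3.75), Cish (3.65) and Mgl2, a galactose-binding lectin (3.25). F13a1, a coagulation factor subunit, was the gene that fell, by -1.34 and -1.04. Arg1, arginase, another textbook product of this state, differed by -0.12 and 0.06 (adjusted p = 0.48 and 0.749 in limma). F13a1 and Arg1 are named after their values were seen.

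Between the genotypes, members of that list differed in both directions, with medians near 0. In unstimulated KO cells 2 of 27 were higher and 5 lower (median -0.03, against 0.01 over all probes, of which 2.19% were higher and 2.5% lower), led by Il4i1, an amino acid oxidase (-1.25), Slc7a2 (-1.18), F13a1 (0.95) and Il1rn, the interleukin-1 receptor antagonist (-0.86). With IL-4 4 were higher and 4 lower (median -0.01, against 0.01 over all probes, of which 1.97% were higher and 2.6% lower), led by Klf4, a transcription factor (2.00), Il1rn (-1.45), the chemokine Ccl17 (-1.39) and F13a1 (1.24). The difference between responses, which passed for 0.105% of all probes, passed for Klf4 (1.74, adjusted p = 0.0303 in limma) and Slc7a2 (1.23, adjusted p = 0.00448 in limma). Both were, like Retnla, larger in KO. The levels behind them differed. Slc7a2 was lower in unstimulated KO (-1.18, adjusted p = 2.1e-05 in limma) and not separated with IL-4 (0.06, adjusted p = 0.853). Klf4 was not separated in unstimulated cells (0.26, adjusted p = 0.595 in limma) and higher in KO with IL-4, as was Retnla.

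Of 16 genes of IL-4 receptor signalling, a list also chosen with earlier results known, 14 were tested and 2 had no probe. Over all probes, 15.3% were called in the WT response, 17.7% in the KO response, 4.69% between unstimulated genotypes and 4.57% between genotypes with IL-4. In WT 4 of the 14 rose and 2 fell (median -0.04), the largest changes being of Cish, Socs1 (1.35), Il13ra1 (-0.88) and Socs3 (0.80), which are feedback inhibitors except for Il13ra1, a receptor chain. In KO 4 rose and 3 fell (median 0.01), led by Cish, Socs1 (1.42), Socs3 (0.95) and Jak2, a receptor-bound kinase (0.90). Between unstimulated genotypes Pik3r1, a regulatory subunit of PI3 kinase, was higher in KO (0.51) and Socs3 lower (-1.15). With IL-4 none was higher in KO in limma (3 at an unadjusted p under 0.05) and 3 were lower, namely Socs3 (-1.0), the transcription factor Cebpb (-0.49) and Cish (-0.42). No difference between responses passed for this list in limma, 0 of 14, with 1 higher and 1 lower at an unadjusted p under 0.05.

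The genes whose pattern over the 8 arrays was most like that of each member were ranked by Pearson's r of log2 intensity, as a description, among named probes whose group means differed enough. For the brightest Chil3 probe they were Slc7a5, an amino acid transporter, Hbegf, a growth factor, Acy1, an aminoacylase, Cish and Wdr46, with r from 0.995 to 0.998. Slc7a5, Hbegf, Acy1 and Cish were among the first 5 for each of the 3 probes. For Retnla they were Map3k12, a kinase (0.983), Tuba8, a tubulin (0.973), St7 (0.968), Ffar2, a receptor for short-chain fatty acids (0.964), and Mcm2, a replication helicase subunit (0.962). Ffar2 had group means of 90.3 in unstimulated WT, 91.1 in unstimulated KO, 168 in WT with IL-4 and 289.7 in KO with IL-4. For Retnlg they were Aoah, a lipopolysaccharide-degrading enzyme (0.968), Slc39a4, a zinc transporter (0.953), Sema4a (0.951), Cd59a (0.948) and Ptprs (0.946). All KO readings of Retnlg that entered these correlations were below background. Sema4a had means of 1654 in unstimulated WT, 575 in unstimulated KO, 1017 in WT with IL-4 and 396 in KO with IL-4.

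Among the members themselves, the Chil3 probes correlated at 0.997 to 0.999 over the 8 arrays. Chil3 and Retnla correlated at 0.857 to 0.872, and Retnlg at -0.39 to -0.40 with Chil3 and -0.42 with Retnla. These arrays fall into 4 groups, so the values mostly describe differences between the groups, and those of Retnlg include its KO readings below background.

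**Figure D5:**
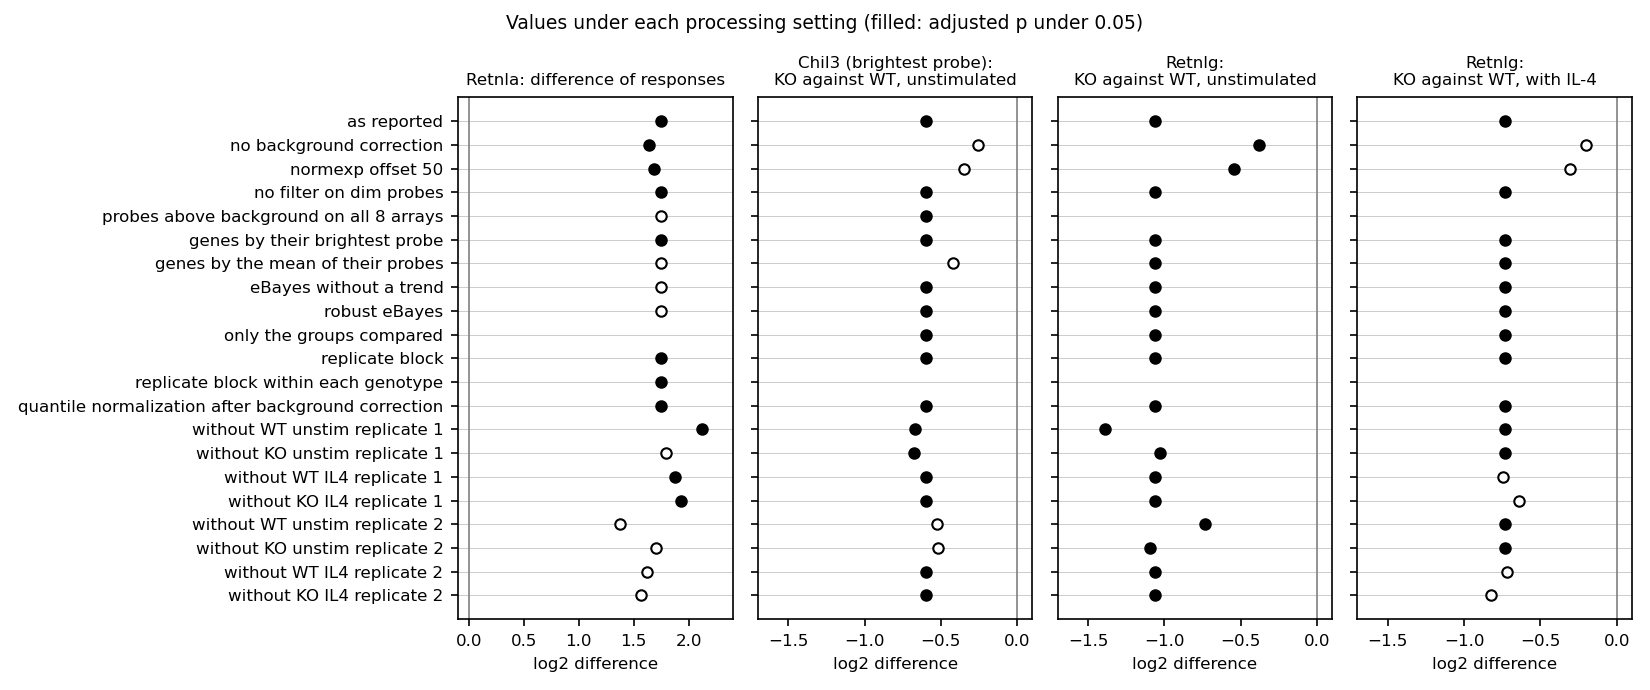
Log2 difference of 4 results (Retnla difference of responses, and KO against WT for Chil3 and Retnlg) under each processing setting and with each array left out, one row per setting and filled points for an adjusted p under 0.05 (limma). Retnla stays between 1.37 and 2.12 with many open points, and the dim Chil3 and Retnlg differences shrink with no background correction. The Retnlg points rest on KO readings below background.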

How the data were processed

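Total RNA was measured on Illumina bead arrays. The deposited values are probe intensities on a linear scale, made with GenomeStudio per the submitters' processing notes, with no version given. Sorted columns differed by at most 0.57, so the table was read as quantile-normalized, and its lowest value of 78.4 shows that background was not subtracted. A second table, with 16 columns whose headings match no sample label, was not used.

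Of 25697 probes, 23978 had 1 gene symbol, 0 had several and 1719 are unnamed here. 23962 matched the RefSeq table (GRCm38.p6), used for names and gene order. Background was corrected with normexp (offset 16) and values taken to log2. The 14327 probes that exceeded background in both duplicates of 1 or more groups were tested. The threshold was the mode of low values plus 1.645 standard deviations of the values below it, and 53.8% to 54.4% of probes exceeded it on an array. limma 3.58.1 (R 4.3.3) was fitted to all 8 arrays with 4 group means, trended eBayes (4 residual and 9.41 prior degrees of freedom) and Benjamini-Hochberg adjustment. An exact permutation test of 2 arrays against 2 cannot go below p = 0.333. A bound sets the bright group against the higher of the dim reading and the lowest value above background. Bounds on deposited readings, ranks with no correction and marker sums without Vsig4 were added after seeing the data.

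The script was tested on simulated data. Members and lists were chosen with earlier results of these data known. Named genes are the members, their families, up to 4 per list and comparison by size of change, and the 5 most alike. Promoters were aligned with Biopython 1.88 and figures drawn with matplotlib 3.10.9. The alternatives changed the background correction, filter, probe summary, variance model, normalization, replicate block and arrays included.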

Additional observations from a re-analysis of the deposited data

Results flagged for a closer look

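The Retnla responses to IL-4 differed between the genotypes by a direct test of that difference. The response was larger in KO than in WT by 1.75 (log2, SE 0.27, adjusted p = 0.0306 in limma), at 2.74 in KO and 1.00 in WT. Both KO arrays with IL-4 read above both WT arrays with IL-4, and both unstimulated KO arrays read below both unstimulated WT arrays. Such separation, in either direction, held for 46.9% and 44.3% of all tested probes. Removing any 1 of 5 arrays ended the call.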

How the results depend on the processing

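Of 552 values recomputed for 30 results under 20 settings, 499 kept their direction and side of the threshold and 7 were reversed, all for Chil3 differences of responses that were not called. The Chil3 responses, the Retnla responses, Retnla between genotypes with IL-4 and Retnlg between unstimulated genotypes passed under every alternative that gave a value. Chil3 (ILMN_2712986) between unstimulated genotypes lost its call with no background correction (-0.25), with offset 50 (-0.35) and with probes averaged per gene (-0.42), and Retnlg with IL-4 lost its call with no background correction (-0.20) and offset 50 (-0.31). The Retnla difference of responses stayed at 1.75 but lost its call with only probes above background on all 8 arrays (adjusted p = 0.054 in limma), with averaged probes (0.0648), without a variance trend (0.0769) and with robust eBayes (0.34). The difference of responses of Chil3 ILMN_3117876 was reversed with no background correction (-0.20) and offset 50 (-0.15). The 15 probes called for the difference of responses became 24 with no background correction, 24 with no filter and 7 with the filter on all 8 arrays. The causes were not tested. Leaving out 1 array at a time gave 1315 to 2147 calls for the WT response (2191 with all arrays), 1445 to 2504 for KO (2541), 373 to 666 between unstimulated genotypes (672), 323 to 634 with IL-4 (655) and 5 to 14 for the difference of responses. The ranges were -0.68 to -0.52 for ILMN_2712986 between unstimulated genotypes, -0.66 to -0.070 for ILMN_3043036 with IL-4, -0.38 to 0.21 for its difference of responses and -0.19 to 0.26 for that of ILMN_3117876. For Retnla they were -0.87 to -0.12 between unstimulated genotypes and 1.37 to 2.12 for the difference of responses, and for Retnlg -0.98 to -0.33 for the WT response and -0.82 to -0.64 between genotypes with IL-4. The titles share replicate numbers, but no label says what a number marks. Deviations of same-numbered arrays correlated at 0.14 within WT and 0.21 within KO and at -0.10 to 0.02 across genotypes, which is a hint of pairing within genotypes from the data, not the design. With a replicate block no call changed for the members, and the counts were 2309, 2618, 743, 744 and 19. A replicate block within each genotype, chosen after seeing the data and run for the responses, changed no member's call and gave 2972, 3287 and, for the difference of responses, 83 calls. A fit on only the groups compared gives no difference of responses, and ILMN_3117876 and Retnlg are not above background on all 8 arrays, nor do probes averaged per gene keep 3 Chil3 values. Dim probes are limited by their signal over background.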
